A study of Rattus norvegicus with 4 samples.

Results

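Skeletal muscle fibres differ in the isoforms of myosin and troponin that they carry, and 10 genes of these isoforms were followed in the middle ear mucosa of rats. The genes were found by symbol in the deposited expression table, in which each had 1 row among 27832 features. The fast set held 6 genes, MYH1, MYH2, MYH4, TNNT3, TNNI2 and TNNC2, and the slow set held 4 genes, MYH7, TNNT1, TNNI1 and TNNC1. All 10 reached the minimum for the comparisons, 1 FPKM on average across the 4 libraries, as did 15944 features in all. FPKM counts sequenced fragments per length of transcript and per size of library, so that levels can be compared between genes.

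The study asked how a host responds when Pseudomonas aeruginosa (PA) and a methicillin-resistant strain of Staphylococcus aureus (MRSA) grow in the middle ear alone or together. Sprague-Dawley rats were inoculated through the eardrum of the right ear with 50 µL of MRSA, of PA, of MRSA and PA mixed (MRSA + PA), or of the medium alone (Media, the vehicle control), and the lining of the bulla was scraped for RNA 1 week later. Genotype and age are not given in the sources used here, nor is the number of rats behind a library. Each of the 4 groups has 1 library, so no difference could be set against a spread between replicates, and each value below stands for 1 library.

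Myosin heavy chains are the motors of the thick filament, and the isoform sets how fast a fibre shortens. The troponin complex on the thin filament has a tropomyosin-binding subunit (troponin T), an inhibitory subunit (troponin I) and a calcium-binding subunit (troponin C), and fast and slow fibres use different genes for each of them. These proteins belong to striated muscle and not to the epithelium and connective tissue that line the middle ear, although small striated muscles, the tensor tympani and the stapedius, attach to the ossicles close by.

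In the deposited table MYH2, MYH1 and MYH4 lay side by side on the + strand of chromosome 10, at 53467097 to 53491312, 53493997 to 53517766 and 53530586 to 53553895, within 86799 bp; the genome build of the table is not given in the sources used here. They are close paralogs, and the authors' counting shared out reads that fit several places, so the split among these 3 genes is uncertain. The other members were spread out: MYH7 at 37521021 to 37544282 on chromosome 15, TNNC2 at 167429205 to 167431933 on chromosome 3, TNNI1 at 57672836 to 57685254 on chromosome 13, TNNC1 at 7219330 to 7223907 on chromosome 16, and TNNT1 at 75651224 to 75662358, TNNI2 at 222504403 to 222507027 and TNNT3 at 222561277 to 222578412 on chromosome 1.

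The 3 fast heavy chains lie in 1 cluster, so the 250 bases before their annotated starts are shown (RefSeq, assembly GRCr8, whose coordinates are not those of the deposited table). Their low levels in PA and MRSA + PA were not particular to the cluster, since all 10 members were lower than Media there. Capitals mark a run of 20 bases that is identical in all 3 windows.
MYH2, chr10:52355489-52355738, + strand: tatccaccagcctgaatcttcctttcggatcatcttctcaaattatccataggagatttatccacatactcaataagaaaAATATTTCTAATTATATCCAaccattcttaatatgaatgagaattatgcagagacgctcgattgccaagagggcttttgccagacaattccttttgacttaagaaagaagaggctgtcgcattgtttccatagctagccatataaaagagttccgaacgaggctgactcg
MYH1, chr10:52384662-52384911, + strand: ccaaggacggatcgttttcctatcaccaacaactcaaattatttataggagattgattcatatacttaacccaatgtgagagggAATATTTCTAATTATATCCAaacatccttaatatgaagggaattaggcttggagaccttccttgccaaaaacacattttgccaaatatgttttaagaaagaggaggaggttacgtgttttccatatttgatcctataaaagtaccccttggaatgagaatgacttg
MYH4, chr10:52421898-52422147, + strand: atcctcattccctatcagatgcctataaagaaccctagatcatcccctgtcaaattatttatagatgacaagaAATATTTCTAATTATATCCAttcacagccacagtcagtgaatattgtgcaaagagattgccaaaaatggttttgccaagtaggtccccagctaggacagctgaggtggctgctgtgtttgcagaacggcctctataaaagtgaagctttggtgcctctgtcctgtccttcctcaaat
The shared run begins 170 bases before the start of MYH2, 166 bases before that of MYH1 and 177 bases before that of MYH4. Of 33469 windows of this length in the RefSeq promoter table, 5 hold the run, or 0.0149%: those of the 3 heavy chain genes and a pair from LOC102555216. Whether the windows of LOC102555216 overlap those of the heavy chain genes was not tested. Windows were found for 8 of the 10 members. Of 241 words of 10 bases in a window, MYH1 shared 18 with MYH2 and 19 with MYH4, MYH2 shared 12 with MYH4, and MYH7 shared none with any of these 3. Searched on both strands, the core TATA sequence TATAAA was found in 5 of the 8 windows (MYH1, MYH2, MYH4, TNNI2 and TNNT1) and in 12.9% of all windows, and the E-box CANNTG, the form bound by the MyoD family, in 6 of 8 (MYH4, MYH7, TNNC2, TNNI1, TNNI2 and TNNT1) and in 65.5% of all. The MCAT element CATTCC was found in MYH1 and MYH4 and in 12.1% of all windows, the MEF2 site in the same pair of genes and in 2.96%, and the CArG box in MYH4 and in 1.5%. The E-box and TATA searches can match the same bases as other motifs, and a match describes letters, not binding.

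The libraries were alike in the breadth of what they detected, with 21504 to 21898 features above 0 FPKM. Markers of the labelled lining were present in every library: EPCAM, an adhesion protein of epithelia, was at 266, 254, 222 and 237 FPKM in MRSA, PA, MRSA + PA and Media, and the keratin KRT18 was between 75.9 and 83.7 FPKM. The 10 members summed to 1459.8 FPKM in MRSA, 11.0 FPKM in PA, 7.33 FPKM in MRSA + PA and 3795.8 FPKM in Media. The Media library therefore held the most muscle isoform RNA, the MRSA library less, and the PA and MRSA + PA libraries very little. Members at 1 FPKM or more numbered 10 in MRSA, 2 in PA, 3 in MRSA + PA and 10 in Media. In bulk tissue of this kind, fewer muscle fibres in a scraping and less RNA per fibre cannot be told apart.

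MYH4, the heavy chain of the fastest fibres (type 2B), had 95.9 FPKM in MRSA, 0.0106 FPKM in PA, 0 FPKM in MRSA + PA and 282 FPKM in Media. MYH1, the heavy chain of type 2X fibres, had 25.6 FPKM in MRSA, 0.0899 FPKM in PA, 0.0680 FPKM in MRSA + PA and 129.9 FPKM in Media. MYH2, the heavy chain of type 2A fibres, had 10.4 FPKM in MRSA, 0.0541 FPKM in PA, 0.0292 FPKM in MRSA + PA and 31.3 FPKM in Media. For all 3 genes Media was highest and MRSA next, and the levels in PA and MRSA + PA stood close together near the bottom of the scale. Relative to Media, MRSA was lower 5.07-fold for MYH1, 3.02-fold for MYH2 and 2.95-fold for MYH4. In PA these genes kept 0.0692%, 0.173% and 0.00374% of the Media level for MYH1, MYH2 and MYH4. The paper also measured MYH1 by real-time RT-PCR, the only member so measured. It reports MYH1 as lower than the control in all 3 inoculated groups, and furthest below it in MRSA. In the libraries here MRSA was instead the nearest to Media, and the reason was not tested.

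MYH7, the heavy chain of slow type 1 fibres and of the heart ventricle, was the member of lowest level in MRSA and Media. It had 1.26 FPKM in MRSA, 0.0554 FPKM in PA, 0 FPKM in MRSA + PA and 4.29 FPKM in Media, so Media was highest and MRSA next, as for the fast heavy chains. The ratio below Media was 3.40-fold in MRSA, between those of MYH2 and MYH1.

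**Figure D1:**
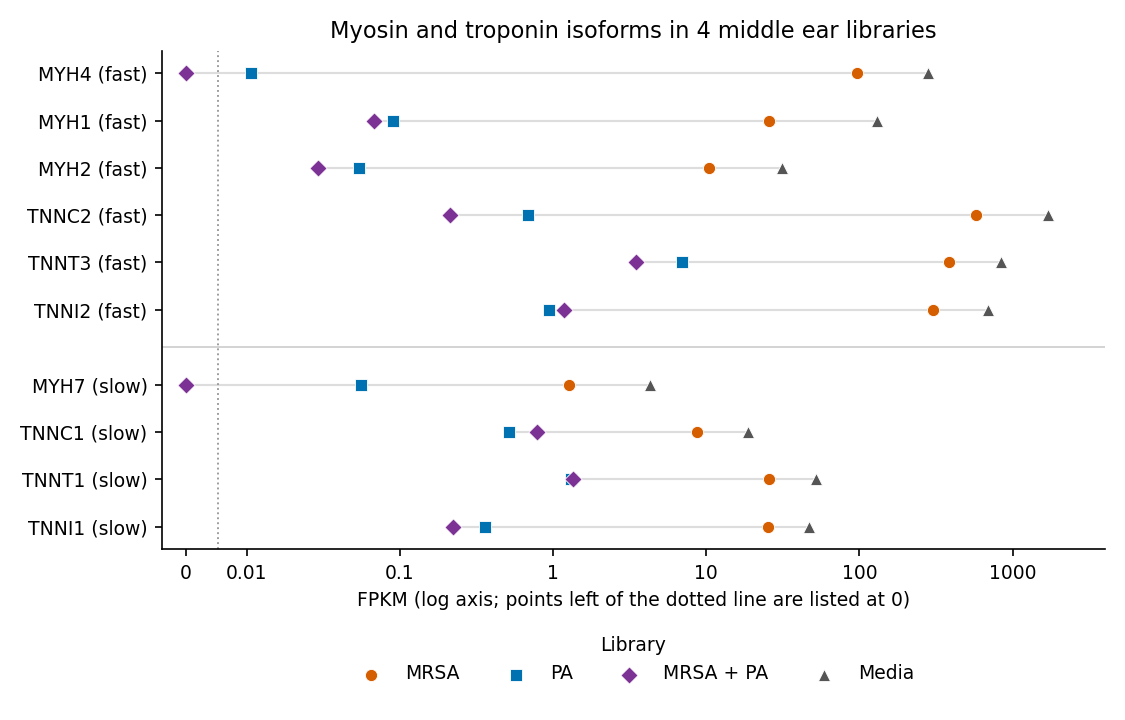
FPKM of the 10 isoforms in each library on a log axis, fast set above and slow set below, with 1 point per library and values listed at 0 drawn left of the dotted line. MRSA and Media lie to the right for every isoform, while PA and MRSA + PA lie between 0 and 6.97 FPKM.

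The fast troponins were the most abundant members in MRSA and Media. TNNC2, fast troponin C, had 581 FPKM in MRSA, 0.682 FPKM in PA, 0.213 FPKM in MRSA + PA and 1698 FPKM in Media. TNNT3, fast troponin T, had 383 FPKM in MRSA, 6.97 FPKM in PA, 3.50 FPKM in MRSA + PA and 843 FPKM in Media. TNNI2, fast troponin I, had 302 FPKM in MRSA, 0.941 FPKM in PA, 1.17 FPKM in MRSA + PA and 689 FPKM in Media. These 3 kept 34.3% to 45.4% of the Media level in MRSA. TNNT3 was the highest member in PA and in MRSA + PA, where it kept 0.826% and 0.415% of the Media level. LSP1, a gene of leukocytes, ends 3982 bp before TNNT3 on the same strand in the deposited table, with 130.0 FPKM in MRSA, 125.6 FPKM in PA, 131.6 FPKM in MRSA + PA and 67.9 FPKM in Media, and its part in the remaining TNNT3 signal was not tested. LSP1 was named after its values were seen.

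The slow troponins stood lower than the fast ones in MRSA and Media. TNNT1, slow troponin T, had 25.8 FPKM in MRSA, 1.31 FPKM in PA, 1.35 FPKM in MRSA + PA and 52.2 FPKM in Media. TNNI1, slow troponin I, had 25.5 FPKM in MRSA, 0.357 FPKM in PA, 0.222 FPKM in MRSA + PA and 46.7 FPKM in Media. TNNC1, the troponin C of slow fibres and of the heart, had 8.68 FPKM in MRSA, 0.518 FPKM in PA, 0.780 FPKM in MRSA + PA and 18.6 FPKM in Media. Each was again highest in Media and next in MRSA, but PA and MRSA + PA had no fixed order, since TNNT1 and TNNC1 were a little higher in MRSA + PA and TNNI1 was higher in PA. The share of the Media level that was kept in MRSA was 46.6% for TNNC1, 49.4% for TNNT1 and 54.6% for TNNI1. The fast troponin nearest to these was TNNT3, which kept 45.4%. In MRSA + PA the slow troponins kept 0.477% to 4.19% and the fast troponins 0.0126% to 0.415%. The nearest of these were TNNI1 at 0.477% and TNNT3 at 0.415%, and TNNI1, TNNC1 and TNNC2 were below 1 FPKM there. In PA the ranges met, since TNNI1 kept 0.766% and TNNT3 0.826%.

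Differences between libraries were taken as log2 ratios after 0.1 FPKM was added to both values. On this scale the change of a gene with a low level is understated, and a gene cannot fall further than the level in Media allows. A feature was counted as lower where the ratio was at least 2-fold. In MRSA against Media 9 of the 10 members were lower, against 4.95% of all features, and the exception was TNNI1 at -0.87; where a log2 difference of at least 1.5 was asked for, the count was 5. In PA against Media all 10 were lower, against 7.8% of all features, and in MRSA + PA against Media all 10 were lower, against 7.83%. No member was counted as higher in any of these comparisons, which share the Media library. The median member difference from Media was -1.37 in MRSA, where the median over all features was 0.05. It was -7.29 in PA, with 0.07 over all features, and -7.90 in MRSA + PA, with 0.05 over all features.

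By median, the fast isoforms were further below Media than the slow ones in each inoculated library. In MRSA the median log2 difference was -1.55 for the fast set and -1.05 for the slow set. In PA it was -9.40 for the fast set and -5.07 for the slow set. In MRSA + PA it was -9.34 for the fast set and -5.32 for the slow set. Fast minus slow, the medians differed by -0.50, -4.33 and -4.02 on the log2 scale for MRSA, PA and MRSA + PA. Within the fast set TNNC2 and MYH4 were furthest from Media, with TNNC2 at -11.08 in PA and -12.40 in MRSA + PA and MYH4 at -11.32 and -11.46. Of all 15944 features ranked from the lowest difference, MYH4 was at place 6 and TNNC2 at place 8 in PA, while in MRSA + PA they were at places 14 and 9.

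The level in Media, which was lower for most slow isoforms, limits how far below Media a gene can be measured. MYH7, for which the scale allows at most -5.46, was at that limit in MRSA + PA and at -4.82 in PA. MYH4 was at its limit of -11.46 in MRSA + PA. For TNNT1 the limit was -9.03 and the differences were -5.22 in PA and -5.18 in MRSA + PA. The limit of TNNC1 was -7.55 and the differences were -4.92 and -4.41. These slow troponins therefore lay well short of the limit, as did the fast TNNT3, with a limit of -13.04 and differences of -6.90 and -7.87. TNNI1, the other slow troponin, had a limit of -8.87 and differences of -6.68 and -7.18. The limit of every slow member lay above the fast medians of -9.40 in PA and -9.34 in MRSA + PA. On this scale no slow member could be as far below Media as those medians. MYH7 was an exception to the order of the sets in MRSA, where its difference of -1.69 was further from Media than that of every fast member but MYH1 at -2.34.

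**Figure D2:**
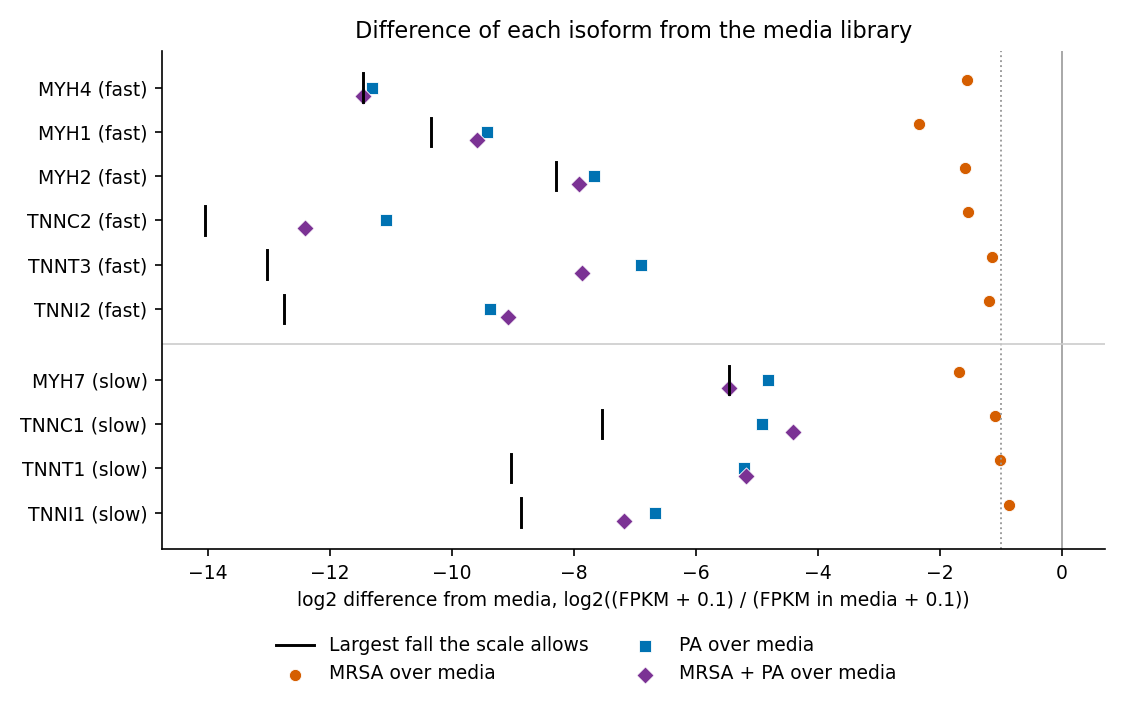
The log2 difference of each isoform from Media in the 3 inoculated libraries (x axis; 0.1 FPKM added to both values), with the fast set above, the slow set below and a black bar at the largest fall the scale allows. MRSA lies between -0.87 and -2.34 for all members, PA and MRSA + PA lie at -4.41 or further, and only MYH4 and MYH7 reach the bar, in MRSA + PA.

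The inoculated libraries were also set against each other. In PA against MRSA all 10 members were lower, against 5.03% of all features, with a median difference of -7.63 for the fast set and -4.02 for the slow set. In MRSA + PA against MRSA all 10 were lower as well, against 5.73% of all features, with medians of -7.58 and -3.97. In MRSA + PA against PA 1 of the 10 was lower, against 4.27% of all features, namely TNNC2 at -1.32. The other 9 differed by less than 2-fold with 0.1 FPKM added, with TNNT3 next at -0.97, TNNC1 the highest at 0.51, and medians of -0.22 for the fast set and -0.23 for the slow set. This count depends on the amount added and on the scaling: it was 0 with 1 FPKM added and 3 with 0.01 FPKM added, when MYH7 was at -2.71 and MYH4 at -1.04, both listed at 0 in MRSA + PA. It was 2 with libraries rescaled to equal FPKM sums over features spanning at least 300 bp, when TNNT3 was at -1.105. All 10 members were lower in MRSA + PA than in MRSA, and in PA than in MRSA, under each of these settings.

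The fast share of the heavy chains was nearly equal in MRSA and Media, where these genes were abundant. Summed over MYH1, MYH2, MYH4 and MYH7 they reached 133 FPKM in MRSA, 0.210 FPKM in PA, 0.0972 FPKM in MRSA + PA and 448.0 FPKM in Media. The fast genes took 99.1% of the sum in MRSA, 73.6% in PA, 100% in MRSA + PA and 99.0% in Media. MYH4 alone took 71.99% in MRSA, 5.04% in PA, 0% in MRSA + PA and 63.05% in Media, and MYH1 took 19.3%, 42.8%, 69.9% and 29.0% in the same libraries. The ratio of MYH4 to MYH1 was 3.74 in MRSA and 2.18 in Media. In PA and MRSA + PA the shares rest on sums below 1 FPKM, and the number of reads behind them is unknown, so no order among the isoforms was read from those libraries. With 6 further striated heavy chains in the sum, none of them counted as fast, the fast share was 11.7% in PA and 14.4% in MRSA + PA. The highest of the 6 in both libraries was MYH7B, with 0.983 FPKM in PA, 0.562 FPKM in MRSA + PA and 1.34 FPKM in Media.

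The troponins summed to 1327 FPKM in MRSA, 10.8 FPKM in PA, 7.23 FPKM in MRSA + PA and 3348 FPKM in Media, and the fast share of the sum was 95.5%, 79.8%, 67.5% and 96.5%. Each subunit could be read as a pair of fast over slow. For troponin T, TNNT3 over TNNT1 was 14.9 in MRSA, 5.33 in PA, 2.60 in MRSA + PA and 16.2 in Media. For troponin I, TNNI2 over TNNI1 was 11.9 in MRSA, 2.63 in PA, 5.27 in MRSA + PA and 14.8 in Media. For troponin C, TNNC2 over TNNC1 was 67.0 in MRSA, 1.32 in PA, 0.273 in MRSA + PA and 91.2 in Media. All 3 ratios were below Media in all 3 inoculated libraries, by little in MRSA and by more in PA and MRSA + PA. Troponin C was furthest from Media in each of them. In PA and MRSA + PA both genes of this pair, and TNNI1 of the troponin I pair, were below 1 FPKM with an unknown number of reads, so no order of fast and slow was read from those ratios. As log2 values of FPKM with nothing added, the fast to slow ratio of troponin C differed from Media by -0.44, -6.11 and -8.38 for MRSA, PA and MRSA + PA. That of troponin T differed by -0.12, -1.60 and -2.64, and that of troponin I by -0.32, -2.49 and -1.49.

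**Figure D3:**
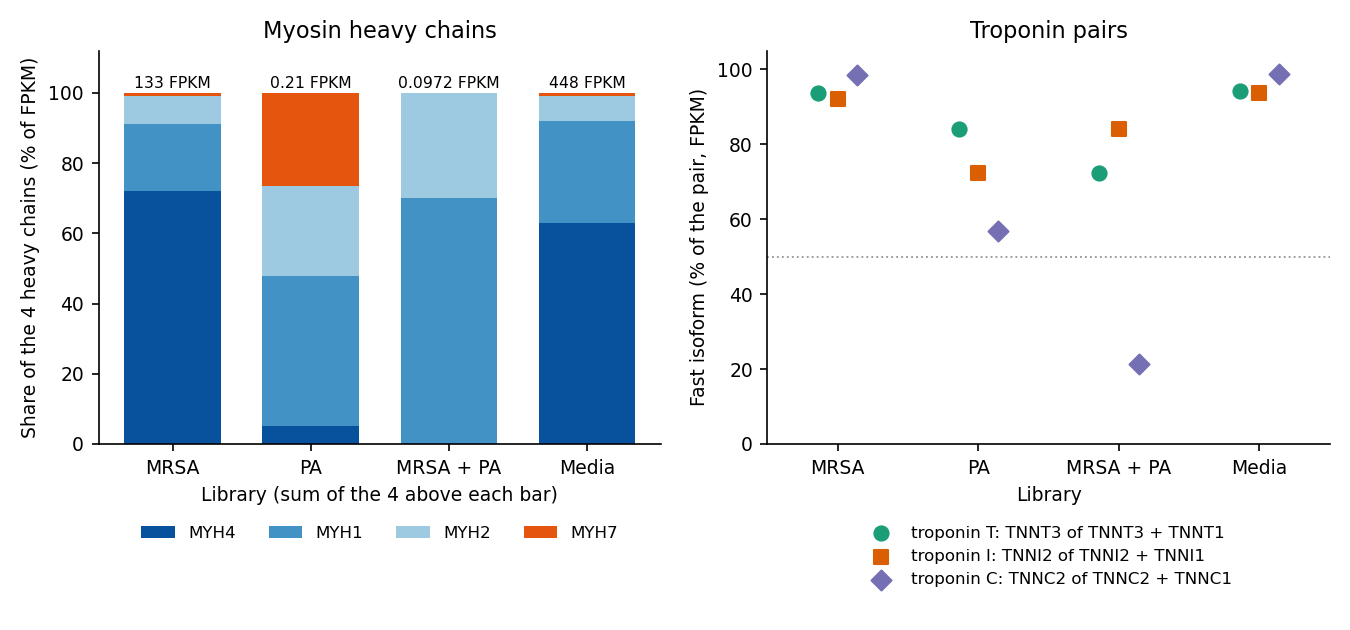
Left, share of each gene in the summed FPKM of the 4 heavy chains per library (bars from 0 to 100%, with the sum above each bar); right, share of the fast isoform in each troponin pair (points, in percent, dotted line at equal levels). MRSA and Media look alike in both panels, while PA and MRSA + PA rest on heavy chain sums of 0.210 and 0.0972 FPKM and TNNC2 makes up 56.9% and 21.5% of its pair.

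Other genes of the fibre were read from lists written with earlier results of these data known. The 9 fast fibre partners, genes that fast fibres use beside the members, were all at least 2-fold lower in every inoculated library, with median differences of -1.58, -8.88 and -9.97 in MRSA, PA and MRSA + PA. MYLPF, the fast regulatory myosin light chain, had 830.0 FPKM in MRSA, 1.46 FPKM in PA, 0.580 FPKM in MRSA + PA and 1948 FPKM in Media. MYL1, the fast essential light chain, had 428 FPKM in MRSA, 1.00 FPKM in PA, 0 FPKM in MRSA + PA and 1249 FPKM in Media. The fast calcium pump ATP2A1 had 135.5, 0.773, 0.311 and 412 FPKM, and the calcium buffer PVALB had 118.8, 0.382, 0.201 and 398 FPKM in MRSA, PA, MRSA + PA and Media. All of these were highest in Media and next in MRSA, as the fast members were.

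The 8 slow fibre partners were mixed, with 3, 5 and 6 of them lower for MRSA, PA and MRSA + PA and with medians of -0.75, -4.27 and -4.16. MYL2, the regulatory light chain of slow fibres and of the heart ventricle, had 503 FPKM in MRSA, 2.43 FPKM in PA, 0 FPKM in MRSA + PA and 1487 FPKM in Media. Its log2 differences of -1.56, -9.20 and -13.86 for MRSA, PA and MRSA + PA were near the fast medians in MRSA and PA. In MRSA + PA it was further from Media than every member, so not all slow genes were nearer to Media than the fast ones. MYBPC1, slow myosin-binding protein C, had 22.0 FPKM in MRSA, 0.420 FPKM in PA, 0.0793 FPKM in MRSA + PA and 67.4 FPKM in Media. TPM3 and ATP2A2, a tropomyosin and a calcium pump that many cells other than muscle also make, did not follow the members. TPM3 had 203 FPKM in MRSA, 211 FPKM in PA, 219 FPKM in MRSA + PA and 129.9 FPKM in Media. ATP2A2 had 79.2 FPKM in MRSA, 87.9 FPKM in PA, 73.7 FPKM in MRSA + PA and 84.8 FPKM in Media.

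Sarcomere genes that fast and slow fibres share stood with the members, with 12 of 14 lower in MRSA and all 14 lower in PA and MRSA + PA, and medians of -1.40, -4.99 and -5.19. Skeletal actin, ACTA1, had 284 FPKM in MRSA, 0.699 FPKM in PA, 0.259 FPKM in MRSA + PA and 719 FPKM in Media. Titin, TTN, the spring of the sarcomere, had 16.4 FPKM in MRSA, 0.271 FPKM in PA, 0 FPKM in MRSA + PA and 59.6 FPKM in Media. TPM1 and TPM2, tropomyosins that smooth muscle also uses, kept much more, with 404 and 185 FPKM in PA and 411 and 176 FPKM in MRSA + PA, against 1044 and 496 FPKM in Media.

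Of 10 matched developmental, cardiac and specialised isoforms, 4 reached the minimum level. ACTC1, cardiac actin, had 33.5 FPKM in MRSA, 0.0294 FPKM in PA, 0 FPKM in MRSA + PA and 62.9 FPKM in Media, and MYH8, the perinatal heavy chain, had 4.87, 0.0162, 0.00577 and 8.68 FPKM. TNNT2, cardiac troponin T, differed from every member in direction, with 1.82 FPKM in MRSA, 5.04 FPKM in PA, 3.65 FPKM in MRSA + PA and 0.558 FPKM in Media. Its log2 differences were 1.55, 2.96 and 2.51 for MRSA, PA and MRSA + PA, and its level exceeded that of TNNT1 in PA and that of both TNNT1 and TNNT3 in MRSA + PA. With TNNT2 counted as a slow isoform, the fast share of troponin FPKM was 54.3% in PA and 44.9% in MRSA + PA.

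**Figure D4:**
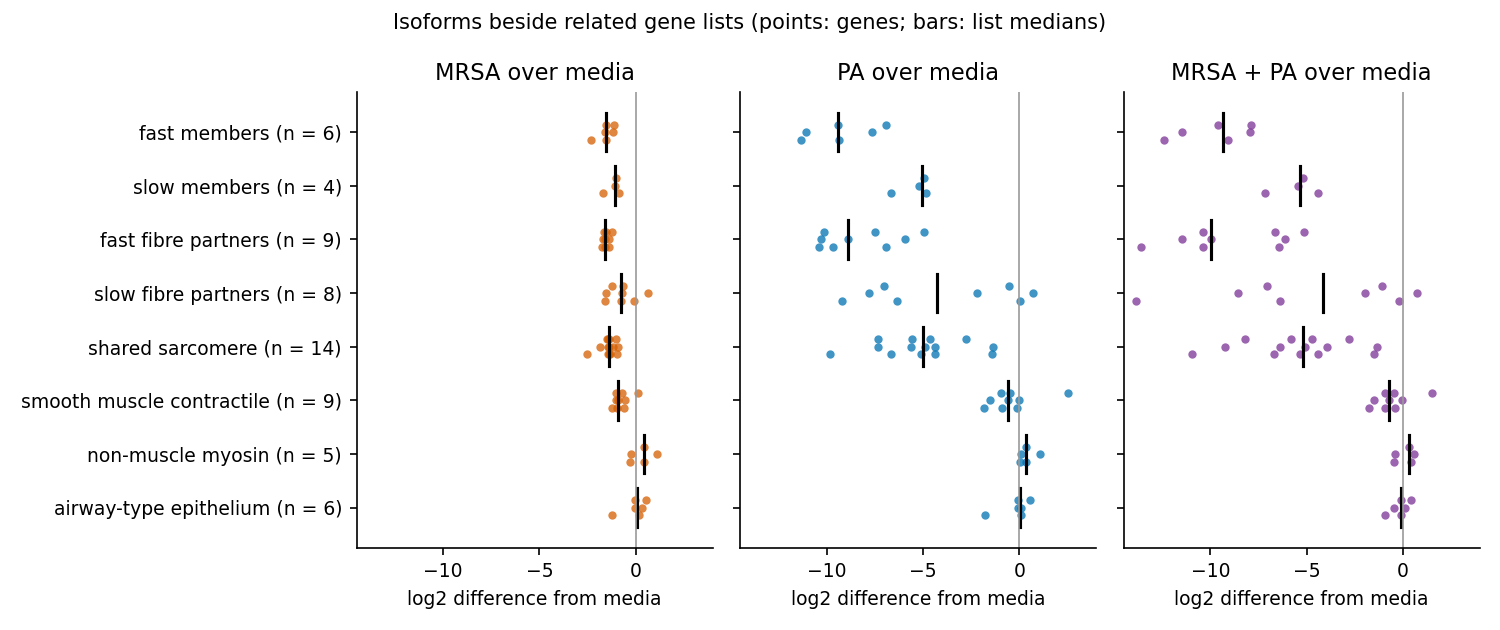
Log2 difference from Media (x axis) for the members and for 6 related lists in panels for MRSA, PA and MRSA + PA, with 1 point per gene that reached the minimum level and a bar at the list median. By median the fast members and their partners lie furthest to the left, shared sarcomere genes lie at medians of -1.40, -4.99 and -5.19, and the medians of smooth muscle, non-muscle myosin and epithelial genes lie between -0.91 and 0.45.

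Contractile genes outside striated muscle were nearer to Media than the members in PA and MRSA + PA. The 9 smooth muscle genes had medians of -0.91, -0.56 and -0.70 in MRSA, PA and MRSA + PA, of which that in MRSA was close to the -1.05 of the slow members. Of these genes 3 were at least 2-fold lower in MRSA, where 4.95% of all features were, 2 in PA and 2 in MRSA + PA, while ACTG2 was higher in PA and MRSA + PA. LMOD1, a leiomodin of smooth muscle, and SYNPO2, an actin-binding protein, were lower in all 3 libraries, and smooth muscle actin, ACTA2, had 72.4 FPKM in MRSA, 147 FPKM in PA, 109.7 FPKM in MRSA + PA and 148 FPKM in Media, a log2 difference of -1.03 in MRSA. The 5 non-muscle myosin genes had medians of 0.45, 0.37 and 0.30, and none was lower. The 6 airway-type epithelial genes had medians of 0.08, 0.02 and -0.10, although BPIFA1, a secreted airway protein, was lower in MRSA and in PA.

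Several genes of other cells that lie within or beside muscle were also highest in Media. The 4 satellite cell and myoblast genes, which mark the precursors of muscle fibres, summed to 3.32 FPKM in MRSA, 0.129 FPKM in PA, 0.0765 FPKM in MRSA + PA and 11.3 FPKM in Media, with 3 of 4 at 0 in PA and 2 in MRSA + PA. MYOD1, a master regulator of the muscle lineage, had 1.23 FPKM in MRSA, 0 FPKM in PA and MRSA + PA, and 4.56 FPKM in Media. MYOG, which marks differentiating myoblasts, had 1.63 FPKM in MRSA, 0 FPKM in PA and MRSA + PA, and 5.65 FPKM in Media. The 4 tendon genes summed to 129.6 FPKM in MRSA, 26.5 FPKM in PA, 14.3 FPKM in MRSA + PA and 512 FPKM in Media, with 2, 2 and 3 of 4 lower and none at 0. KERA held most of that sum in MRSA and Media, with 93.9, 8.63, 0.642 and 422 FPKM in MRSA, PA, MRSA + PA and Media. TNMD, a tendon marker, had 17.7 FPKM in MRSA, 0.421 FPKM in PA, 0.465 FPKM in MRSA + PA and 64.5 FPKM in Media. Of the 4 fat genes 3 were lower in each inoculated library, ADIPOQ among them with 6.79 FPKM in MRSA, 1.14 FPKM in PA, 0.271 FPKM in MRSA + PA and 35.4 FPKM in Media, and PLIN1 was at 0 in MRSA + PA. FABP4, which other cells also make, held most of that list's sum of 273, 114.7, 106.5 and 159 FPKM. Satellite cell, tendon and fat genes other than FABP4 were thus highest in Media, as the members were, but by unlike amounts. The tendon genes MKX and SCX differed least, with log2 differences of -0.37, -0.32 and -0.54 for MKX and -0.63, -0.80 and -1.52 for SCX in MRSA, PA and MRSA + PA. The part of these cells in the member values was not tested.

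The features most like the members were sought among the 10848 features that carried a gene name and averaged 5 FPKM or more, by the Euclidean distance of their 3 log2 differences from the member medians. The nearest was STAC3, a part of the muscle calcium release machinery, at a distance of 0.15, with 8.99 FPKM in MRSA, 0.0487 FPKM in PA, 0 FPKM in MRSA + PA and 22.1 FPKM in Media. Next came ACTN2 (alpha-actinin-2 of the Z-disc) at 0.29, CMYA5 at 0.39, TRIM54 at 0.41, CACNG1 (a subunit of the muscle calcium channel) at 0.51 and SMPX at 0.62. The likeness rests on 3 comparisons that share the Media library. STAC3, ACTN2, TRIM54 and SMPX were at 0 FPKM in MRSA + PA. Their difference there is the largest fall that their level in Media allows, so the likeness depends partly on that level.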

How the data were processed

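RNA from the middle ear mucosa of rats given MRSA, PA, MRSA + PA or Media was sequenced by the authors after poly(A) selection (TruSeq, HiSeq2500), with 1 library per group. The authors' deposited table gives FPKM for 27832 features. The submitters' processing notes name STAR 2.3.0e, Cufflinks 2.1.1 and edgeR. The paper's methods name a human reference, while the chromosomes of the table are those of the rat, and the build is not given in the sources used here. FPKM gives no read counts, so the depth behind each value is unknown. The 3 deposited comparison tables hold the authors' log2 ratios, p-values and q-values and were not used.

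Groups were taken from the inoculum label of each sample, since the treatment text describes MRSA for every sample. The FPKM columns were matched to samples by title. Symbols were matched in any case, and the row with the highest mean was kept. Log2 ratios between libraries had 0.1 FPKM added, only features averaging 1 FPKM or more were compared, and a 2-fold difference was counted. The fast to slow ratios of the troponin pairs had nothing added. With 1 library per group no test was made. The members and the 10 lists were chosen with earlier results of these data known. Genes named are the members, in each list the 4 of highest mean and 3 of largest difference from Media, of which examples are given, and the 6 nearest features; LSP1 and the further MYH9 feature were named after their values were seen. Symbols TCAP, MYOZ3, MYL12A and TNNI3 were not analysed here.

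The alternatives were 1 or 0.01 FPKM added, median-of-ratios scaling, equal FPKM sums, all rows of a symbol summed, a 1.5-fold or 1.5 log2 limit, all features or only those averaging 5 FPKM or more, 6 further striated heavy chains, and TNNT2 counted as slow. Equal FPKM sums over features spanning at least 300 bp, and the alternatives for counts between inoculated libraries, were added after the data were seen. The arithmetic was tested on simulated data. Promoter windows came from RefSeq (GRCr8). Python 3.11.15, numpy 2.4.6, pandas 2.3.3 and matplotlib 3.10.9 were used.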

Additional observations from a re-analysis of the deposited data

Results flagged for a closer look

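A further feature named MYH9, the heavy chain of non-muscle myosin, was outside the comparisons because another MYH9 feature had the higher mean. It had 4.19 FPKM in MRSA, 0.403 FPKM in PA, 0.0391 FPKM in MRSA + PA and 0.107 FPKM in Media, and is listed since its level in MRSA was above that in Media. The MYH9 feature used in the list had 8.35 FPKM in MRSA, 8.07 FPKM in PA, 4.65 FPKM in MRSA + PA and 3.76 FPKM in Media. How reads were divided between these features was not tested.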

How the results depend on the processing

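Over 20 results and 100 alternatives, 88 values stayed within the limits set for a change (1.5-fold) and 12 moved. Some of the 88 could not move: each member had 1 row, so summing rows changed nothing. All 10 members passed the minimum, so dropping it changed nothing either. No log2 difference turned its direction, and counts and shares have no direction to turn. The count of members lower in MRSA was 5 in place of 9 where a log2 difference of at least 1.5 was needed. With 1 FPKM added the median member difference from Media was -5.93 in PA and -6.11 in MRSA + PA, and with 0.01 FPKM added it was -7.96 and -8.97. The fast minus slow difference in PA was -3.41 with 1 FPKM added. With 6 further striated heavy chains in the sum, the fast share of heavy chain FPKM was 11.7% in PA and 14.4% in MRSA + PA. None of the 6 was counted as fast, and MYH7B was the highest of them in both libraries. With TNNT2 counted as slow, the fast share of troponin FPKM in MRSA + PA was 44.9%. In PA it was 54.3% in place of 79.8%, a change still within the limit set. The count of members lower in MRSA was 10 with equal FPKM sums, where TNNI1 was at -1.14, and 8 with equal sums over features spanning at least 300 bp, where TNNT1 was at -0.96. The count of members lower in MRSA + PA than in PA, 1 as reported, was 0 with 1 FPKM added, 3 with 0.01 FPKM added and 2 with those equal sums over longer features. With 1 library per group no replicate could be left out, and the depth behind FPKM below 1 is unknown. No paired analysis was possible because each group has 1 library.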
